A study of Mus musculus with 16 samples.

Results

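Lrg1, the gene delivered by the vector, was followed in epididymal white adipose tissue (eWAT) together with 9 genes of endoglin, ALK1 and TGF-beta signalling: Eng, Acvrl1, Tgfbr1, Tgfbr2, Tgfb1, Bmpr2, Smad7, Id1 and Id3. The genes were chosen by symbol, and all 10 were found among the 55573 genes of the count table and passed the filter on low counts. The tissue came from 16 obese, diabetic male mice of genotype C57BLKS/J-db/db, which lack a working leptin receptor. Mice had received AAV8-eGFP, the control virus, or AAV8-LRG1-FL at 4 weeks of age, and 4 mice of each treatment were sampled at week 7 and another 4 at week 10 of age, so every group shares the db/db genotype and an AAV8 injection and none is lean or free of virus. The vector used the CB7 promoter, which is active in many tissues, and encoded LRG1 with a 3xFLAG tag at its C terminus. Mice were treated by cage, and the cage of each mouse is not given in the sources used here, so cage and vector cannot be told apart.

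LRG1 is a secreted leucine-rich glycoprotein made by liver, neutrophils and adipocytes. In endothelial cells it is known to bind endoglin, a co-receptor for TGF-beta and BMP ligands, and to shift TGF-beta signalling from the receptor TGFBR1 (ALK5), which acts through SMAD2 and SMAD3, towards ALK1 (encoded by Acvrl1), which acts through SMAD1, SMAD5 and SMAD9. TGFBR2 and BMPR2 are the type II receptors of these complexes, SMAD7 is an inhibitor that the pathway itself induces, and Id1 and Id3 are the classical target genes of the SMAD1, SMAD5 and SMAD9 branch.

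The mouse Lrg1 gene lies on chromosome 17 from 56119678 to 56122001 on the minus strand of GRCm38. Its 1 annotated transcript has 1408 bases in 2 exons, and the coding part, bases 116 to 1144, takes up 73.1% of it. The Lrg1 qPCR primers of the study bind at bases 132 to 153 in exon 1 and at bases 225 to 244 in exon 2, inside the coding part, and their 113-base product is shown because neither it nor the gene counts separate a vector transcript from the mouse transcript. It is written as the transcript reads, with both primer sites in capitals, and spans chr17:56120842-56121870 of the genome with the intron between.
Lrg1 product: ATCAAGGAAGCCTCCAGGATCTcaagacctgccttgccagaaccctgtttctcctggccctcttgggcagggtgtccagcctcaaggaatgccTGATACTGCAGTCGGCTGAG

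Lrg1 was higher in the LRG1 group at both weeks. At week 7 it was counted at 86.2, 108, 110.2 and 107 CPM (gene counts set against a common library size after TMM scaling) in eGFP controls. In the LRG1 group of week 7 it was at 478, 302, 316 and 288 CPM. All 4 LRG1 libraries lay above all 4 eGFP libraries, and 1 of them stood well above the other 3. The log2 fold change was 1.75 (SE 0.20), which is 3.36-fold (edgeR quasi-likelihood test, adjusted p = 1.58e-05). At week 10 Lrg1 was at 99.6, 115, 106 and 105 CPM in eGFP controls and at 506, 624, 428 and 286 CPM in the LRG1 group. The groups were again apart, and the spread inside the LRG1 group (30.7% of its mean) was wider than in the eGFP group (5.85%). The log2 fold change was 2.12 (SE 0.20), or 4.34-fold (edgeR, adjusted p = 0.000117), and by p-value Lrg1 ranked 2 among the 20822 genes tested. The effect did not differ detectably between weeks (difference 0.37, SE 0.27, edgeR adjusted p = 0.805).

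The neighbours of Lrg1 on the chromosome gave no call. No other annotated gene overlaps Lrg1, and the nearest genes are Plin5, a lipid droplet protein, 2081 bases away, and Sema6b, a semaphorin, 1083 bases away. At week 7 the log2 fold change of Plin5 was 0.00 (SE 0.21, edgeR adjusted p = 0.994) and that of Sema6b 0.06 (SE 0.17, adjusted p = 0.832). At week 10 Plin5 stood at 0.40 (SE 0.21, edgeR adjusted p = 0.187) and Sema6b at 0.18 (SE 0.17, adjusted p = 0.474).

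**Figure D1:**
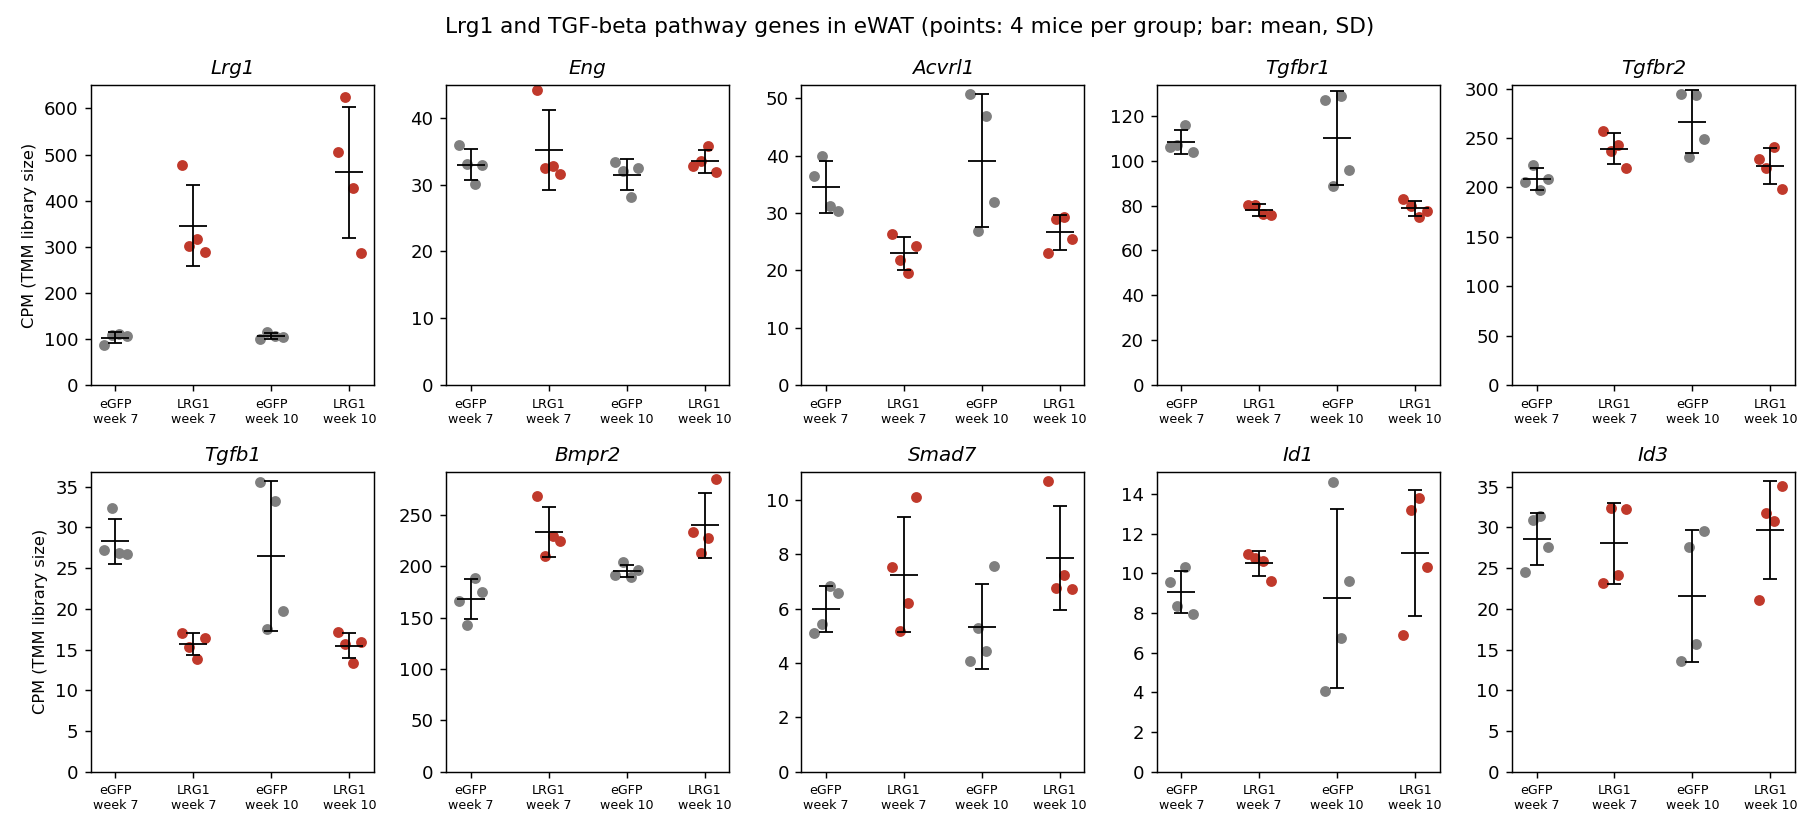
CPM of the 10 genes in every mouse (vertical axis from 0, TMM-scaled library sizes), with the 4 groups along the horizontal axis. Points are mice, and the bar gives the mean and SD of 4 mice. Lrg1 is higher in every LRG1 mouse than in any eGFP mouse at both weeks, Tgfb1 and Tgfbr1 are lower at both weeks, and the eGFP mice of week 10 split into pairs for Acvrl1, Tgfbr1, Tgfbr2, Tgfb1 and Id3.

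Of the 10 genes, edgeR called 2 higher (Lrg1 and Bmpr2) and 2 lower (Tgfb1 and Tgfbr1) in the LRG1 group at week 7, at an adjusted p below 0.01. Among all genes tested, 7.37% were called higher and 10.7% lower at that week. Scaling by library totals only changed that background from 1534 genes higher and 2221 lower to 341 and 3636, and at week 10 from 762 and 1092 to 320 and 1136. At week 10, 1 gene was called higher (Lrg1) and 2 lower (Tgfb1 and Tgfbr1), where 3.66% and 5.24% of all tested genes were called. The week 10 background depended on single mice more than that of week 7. It was 159 genes higher and 125 lower without LRG1 library 4, 1601 and 2046 without eGFP library 2, and 87 and 74 without both eGFP library 1 and eGFP library 3. At week 7, leaving out 1 library gave 705 to 1128 higher and 1481 to 1951 lower. The LRG1 and eGFP libraries did not overlap for 5 of the 10 genes at week 7, 2 with the LRG1 group higher and 3 with it lower, where 18.6% of all tested genes lay wholly higher and 19.4% wholly lower. At week 10 they did not overlap for 4 of the 10, with 2 in each direction, against 9.96% and 10.1% of all tested genes.

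**Figure D2:**
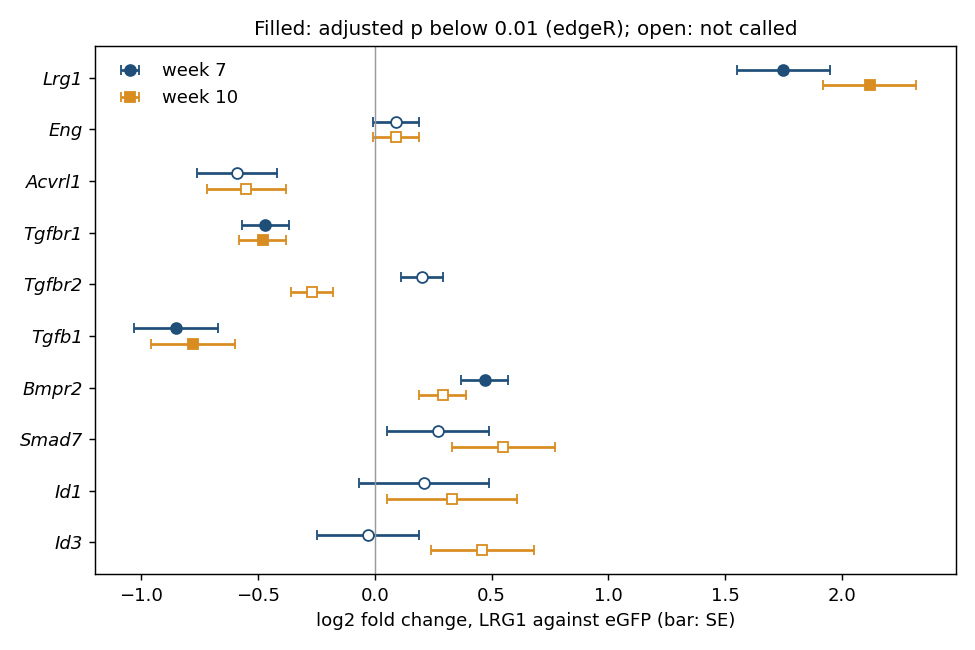
Log2 fold change of the LRG1 group against eGFP controls (horizontal axis, bars are SE) for each gene at week 7 (circles) and week 10 (squares). Filled symbols mark an adjusted p below 0.01 in edgeR. Lrg1 stands at 1.75 and 2.12, Tgfb1 at -0.85 and -0.78 and Tgfbr1 at -0.47 and -0.48, and only Tgfbr2 lies above 0 at week 7 and below 0 at week 10 by more than its SE.

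The ligand Tgfb1, which encodes TGF-beta 1, was lower in the LRG1 group. In eGFP controls of week 7 it was at 27.2, 32.4, 26.8 and 26.7 CPM, and in the LRG1 group at 17, 15.3, 13.9 and 16.4 CPM. Every LRG1 library was below every eGFP library, and the log2 fold change was -0.85 (SE 0.18, edgeR adjusted p = 0.00247), which missed the threshold without LRG1 library 3 (-0.80, adjusted p = 0.0111). At week 10 it was at 35.6, 17.5, 33.2 and 19.7 CPM in eGFP controls and at 17.1, 15.7, 13.3 and 15.9 CPM in the LRG1 group. The groups did not overlap, but libraries 2 and 4 of the eGFP group lay just above the LRG1 group while libraries 1 and 3 lay far above it. The log2 fold change of week 10 was -0.78 (SE 0.18, edgeR adjusted p = 0.00791), and it was -0.27 (SE 0.11, adjusted p = 0.204) without libraries 1 and 3.

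Tgfbr1, the type I receptor of the SMAD2 and SMAD3 branch, was lower in the LRG1 group as well. In eGFP controls of week 7 it was at 106, 107, 116 and 104 CPM, and in the LRG1 group at 80.2, 80.1, 76.1 and 75.7 CPM, a log2 fold change of -0.47 (SE 0.10, edgeR adjusted p = 0.0027). The LRG1 libraries lay close together and below all controls, and the call ended without LRG1 library 3 (adjusted p = 0.0105) or library 4 (adjusted p = 0.0101). At week 10 Tgfbr1 was at 127, 88.7, 129 and 95.7 CPM in eGFP controls and at 83.0, 79.8, 75.1 and 77.7 CPM in the LRG1 group. The log2 fold change was -0.48 (SE 0.10, edgeR adjusted p = 0.00481), and without eGFP libraries 1 and 3 it was -0.22 (SE 0.07, adjusted p = 0.07). For both genes the week 10 call also ended when either of these eGFP libraries, or any 1 of the 4 LRG1 libraries, was left out, with adjusted p-values in edgeR of 0.0108 to 0.0331, and the direction held each time. In a fit of only the 8 libraries of week 10 neither was called (edgeR adjusted p = 0.0655 for Tgfb1 and 0.0542 for Tgfbr1), where that fit called 2 genes higher and 10 lower of 19128, and limma-voom did not call Tgfb1 (adjusted p = 0.0176).

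The promoters of Tgfb1 and Tgfbr1 are shown because these genes were the pair called lower at both weeks. They are the 250 bases before the gene start, from RefSeq (GRCm38.p6), which held a window for 7 of the 10 genes. Both strands were searched for CAGAC, the SMAD box, for GGCGCC, a BMP-responsive SMAD motif, and for TTCNNNGAA, a STAT motif, and matches are in capitals. In the stretches of this length before all 32851 RefSeq gene starts, 42.2% held CAGAC, 9.59% held GGCGCC and 7.02% held TTCNNNGAA. Both windows are rich in G and C (75.2% for Tgfb1 and 74.8% for Tgfbr1). The window of Tgfb1, chr7:25686752-25687001 on the plus strand, held none of the motifs, and that of Tgfbr1, chr4:47352972-47353221 on the plus strand, held 1 GGCGCC.
Tgfb1: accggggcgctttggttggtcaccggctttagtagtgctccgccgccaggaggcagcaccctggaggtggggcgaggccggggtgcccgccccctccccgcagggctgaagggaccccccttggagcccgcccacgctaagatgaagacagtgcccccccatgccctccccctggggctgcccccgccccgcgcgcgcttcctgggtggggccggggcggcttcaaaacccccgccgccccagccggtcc
Tgfbr1: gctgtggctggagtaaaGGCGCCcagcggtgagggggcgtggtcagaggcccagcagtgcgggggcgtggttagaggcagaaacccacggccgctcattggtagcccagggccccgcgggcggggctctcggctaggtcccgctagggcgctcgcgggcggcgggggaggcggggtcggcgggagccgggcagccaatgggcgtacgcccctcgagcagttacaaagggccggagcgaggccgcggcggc

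Among the type II receptors, Bmpr2 was higher in the LRG1 group of week 7. It was at 166, 143, 189 and 175 CPM in eGFP controls and at 268, 210.3, 229.8 and 225 CPM in the LRG1 group. The groups did not overlap, and the log2 fold change was 0.47 (SE 0.10, edgeR adjusted p = 0.00305). With libraries scaled by their totals only it was 0.31 (SE 0.13, adjusted p = 0.0753), a scaling that moved the median of all tested genes to -0.15, and the call also ended without eGFP library 1 (adjusted p = 0.011), eGFP library 2 (adjusted p = 0.0121) or LRG1 library 1 (adjusted p = 0.0124). At week 10 Bmpr2 was at 192, 204, 190.0 and 196 CPM in eGFP controls and at 233, 213, 228 and 285 CPM in the LRG1 group. All 4 LRG1 libraries were above the controls, but the log2 fold change of 0.29 (SE 0.10, edgeR adjusted p = 0.0508) was not called.

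Tgfbr2, the type II receptor that binds TGF-beta 1, was not called at either week. At week 7 it was at 205, 223, 197 and 208 CPM in eGFP controls and at 257, 237, 243 and 220.0 CPM in the LRG1 group, a log2 fold change of 0.20 (SE 0.09, edgeR adjusted p = 0.0997). At week 10 it was at 294, 230.4, 293 and 249 CPM in eGFP controls and at 229, 220.1, 241 and 198 CPM in the LRG1 group, a log2 fold change of -0.27 (SE 0.09, edgeR adjusted p = 0.0437). The groups overlapped at both weeks, and the estimates had opposite signs. Scaling by library totals reduced the week 7 value to 0.05 (edgeR adjusted p = 0.739), and leaving out eGFP libraries 1 and 3 reduced the week 10 value to -0.11 (edgeR adjusted p = 0.537). The difference between the 2 effects was -0.47 (SE 0.13), with an unadjusted p of 0.00208 and an adjusted p of 0.113 in edgeR, and -0.31 in both of those settings. None of the 10 genes was called by edgeR in this comparison, and 0.327% of all tested genes were. At an unadjusted p below 0.05 there was 1, Tgfbr2, and DESeq2 and limma-voom called 0 as well.

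Eng, which encodes endoglin, did not differ detectably between the groups. It was at 35.9, 33.0, 30.1 and 32.9 CPM in eGFP controls of week 7 and at 44.1, 32.4, 32.7 and 31.5 CPM in the LRG1 group, with 3 of the 4 LRG1 libraries inside the range of the controls. The log2 fold change was 0.09 (SE 0.10, edgeR adjusted p = 0.511), and it was -0.06 when libraries were scaled by their totals only. At week 10 it was at 33.4, 32.0, 28.1 and 32.4 CPM in eGFP controls and at 32.8, 33.5, 35.7 and 31.8 CPM in the LRG1 group, again a log2 fold change of 0.09 (SE 0.10, edgeR adjusted p = 0.57). Eng shares 61 exon bases with Fpgs on the opposite strand. Fpgs had 4733 counts over all libraries and Eng 31813, and whether strand was used in counting is not stated.

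Acvrl1, which encodes ALK1, was lower in every LRG1 library of week 7 but not called. It was at 36.5, 39.9, 31.3 and 30.4 CPM in eGFP controls and at 26.3, 21.9, 19.6 and 24.2 CPM in the LRG1 group, a log2 fold change of -0.59 (SE 0.17, edgeR adjusted p = 0.0161). It passed the threshold in DESeq2 (adjusted p = 0.00583), in a fit of only the 8 libraries of that week (edgeR adjusted p = 0.000688) and with library total scaling (edgeR adjusted p = 0.00232). These settings called more genes lower than the main fit. DESeq2 called 2826 of 20822 lower, the 8-library fit 3146 of 19719 and library total scaling 3636 of 20822. At week 10 it was at 50.8, 26.9, 47.0 and 31.9 CPM in eGFP controls and at 23, 28.9, 29.4 and 25.4 CPM in the LRG1 group. The groups overlapped through eGFP library 2, and the log2 fold change was -0.55 (SE 0.17, edgeR adjusted p = 0.0294). Without eGFP library 2 it was called, at -0.70 (SE 0.15, edgeR adjusted p = 0.0028), and without eGFP libraries 1 and 3, the high ones, it was at -0.14 (SE 0.14, edgeR adjusted p = 0.645). Leaving out library 2 called 2046 of 21276 genes lower, and leaving out libraries 1 and 3 called 74 of 21872. Acvrl1 shares 127 exon bases with the gene model Gm16031 on the other strand, which had 351 counts over all libraries against 29220 for Acvrl1.

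The induced inhibitor and the target genes were not called in any comparison. Smad7 ranged from 5.1 to 6.85 CPM in eGFP controls and from 5.18 to 10.1 CPM in the LRG1 group of week 7 (log2 fold change 0.27, SE 0.22, edgeR adjusted p = 0.377). At week 10 it ranged from 4.06 to 7.57 and from 6.72 to 10.7 CPM (0.55, SE 0.22, adjusted p = 0.0856). The groups overlapped at both weeks. Id1 was at 9.59, 8.38, 10.3 and 7.97 CPM in eGFP controls of week 7 and at 11, 10.8, 10.6 and 9.61 CPM in the LRG1 group (0.21, SE 0.28, edgeR adjusted p = 0.605). At week 10 Id1 was at 4.05, 14.6, 6.74 and 9.6 CPM in eGFP controls and at 6.87, 13.2, 13.8 and 10.3 CPM in the LRG1 group (0.33, SE 0.28, edgeR adjusted p = 0.427). The eGFP controls of week 10 ran both below and above all LRG1 libraries. Id3 was at 24.5 to 31.4 CPM in eGFP controls and 23.2 to 32.4 CPM in the LRG1 group at week 7, a log2 fold change of -0.03 (SE 0.22, edgeR adjusted p = 0.936) that was 0.03 with upper quartile scaling. At week 10 Id3 was at 13.6, 27.6, 15.7 and 29.5 CPM in eGFP controls and at 21.1, 31.8, 30.8 and 35.1 CPM in the LRG1 group (0.46, SE 0.22, edgeR adjusted p = 0.148). Libraries 1 and 3 of the eGFP group were the low ones for both Id genes, the same libraries that were high for Tgfb1, Tgfbr1, Tgfbr2 and Acvrl1.

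These 2 eGFP libraries of week 10 stood apart in cell type markers too. The mean log2 CPM of 10 macrophage markers was 7.54 and 7.53 in libraries 1 and 3, against 6.69 and 7.16 in libraries 2 and 4. Their mean for 16 endothelial markers was 3.96 and 4.10, against 4.94 and 4.83, and for 10 adipocyte markers 8.22 and 8.57, against 9.38 and 9.35. The eGFP libraries of week 7 lay at 7.51 to 7.80 for macrophage, 4.11 to 4.45 for endothelial and 8.86 to 9.05 for adipocyte markers. So in libraries 1 and 3 high macrophage and low endothelial marker levels went together with high Tgfb1, Tgfbr1, Tgfbr2 and Acvrl1 and low Id1 and Id3, and the part of cell composition in these values was not tested.

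Between week 7 and week 10 none of the 10 genes was called within a treatment, where 2.14% of all tested genes were called in eGFP controls and 0.00961% in the LRG1 group. At an unadjusted p below 0.05 there was 1 gene in each, Tgfbr2 in eGFP controls and Lrg1 in the LRG1 group. DESeq2 called Tgfbr2 in eGFP controls (0.37, SE 0.10, adjusted p = 0.00258) and limma-voom none. In that comparison DESeq2 called 462 genes higher and 617 lower of 20822. The smallest adjusted p in eGFP controls was that of Tgfbr2, whose 4 libraries of week 10 all lay above those of week 7 (log2 fold change 0.36, SE 0.09, edgeR adjusted p = 0.0274). Bmpr2 was the other gene with all 4 eGFP libraries higher at week 10 (0.22, SE 0.10, adjusted p = 0.26), and 4.08% of all tested genes had all 4 higher. None of the 10 genes had all 4 eGFP libraries lower at week 10, against 6.89% of all tested genes. Without eGFP libraries 1 and 3 of week 10, Tgfb1 was called lower at week 10 than at week 7 in eGFP controls (-0.60, SE 0.11, edgeR adjusted p = 0.00177). That setting called 1063 genes higher and 1146 lower of 21872, more than the main fit. In the LRG1 group the libraries of both weeks overlapped for all 10 genes, where 3.64% of all tested genes lay wholly higher and 3.41% wholly lower at week 10, and Lrg1 had a log2 fold change of 0.41 (SE 0.19, edgeR adjusted p = 0.589).

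Levels of different genes were compared as CPM per kilobase of exon. In eGFP controls of week 7, Lrg1 had the highest level of the 10 genes even without the LRG1 vector, 73.1 ± 7.97 CPM per kilobase (SD, n = 4). Tgfbr2 followed at 25.4 ± 1.32, Tgfbr1 at 16.5 ± 0.769 and Id3 at 16 ± 1.78, and the last pair overlapped. Bmpr2 (9.36 ± 1.07), Eng (8.15 ± 0.588), Acvrl1 (8.09 ± 1.06) and Id1 (7.82 ± 0.939) formed a run in which neighbours overlapped. Tgfb1 (5.61 ± 0.548) and Smad7 (1.33 ± 0.188) were lowest and apart from the rest. In the LRG1 group of week 7, Lrg1 was at 246 ± 63.0 CPM per kilobase, Tgfbr1 (11.9 ± 0.37) came after Id3 and Bmpr2 (13 ± 1.37), and Acvrl1 (5.39 ± 0.679) came after Id1 and Eng with no overlap with Eng. At week 10 the order of the 10 genes in the LRG1 group was the same as at week 7, with Lrg1 at 328 ± 101 CPM per kilobase. In eGFP controls of week 10 it differed from week 7 only in that Acvrl1 came before Eng, a pair that overlapped at both weeks.

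**Figure D3:**
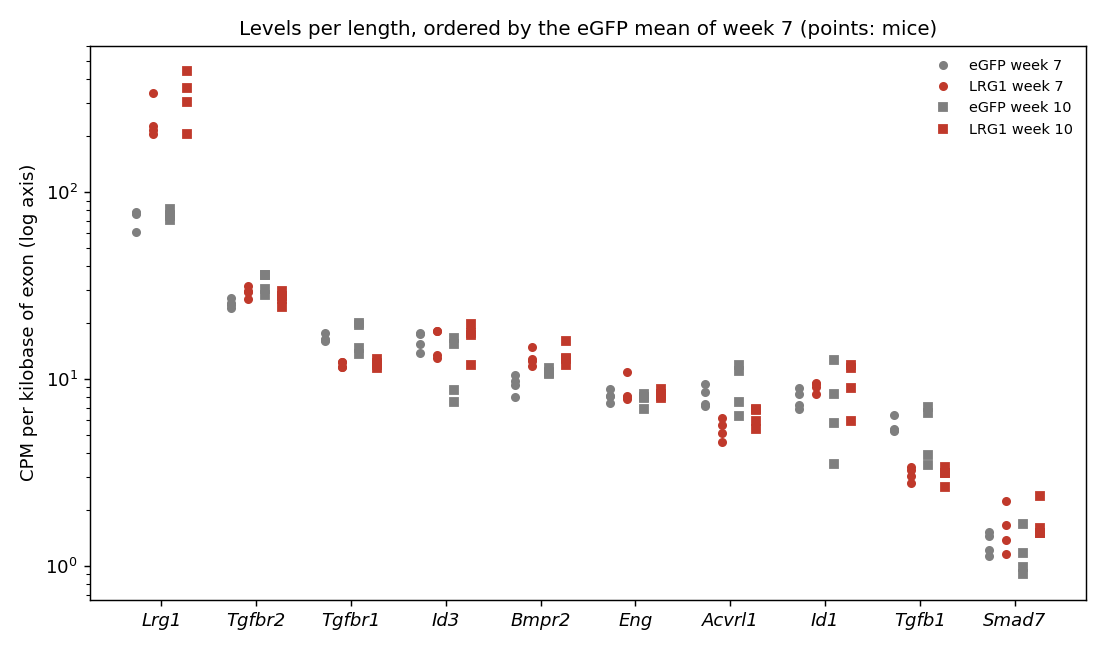
CPM per kilobase of exon (log axis) of each gene in every mouse, with genes ordered by the eGFP mean of week 7. Grey is eGFP and red is LRG1, circles are week 7 and squares week 10. Lrg1 is the highest of the 10 genes in every group, from 73.1 in eGFP controls to 328 in the LRG1 group of week 10 on average, and Smad7 is the lowest.

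Endoglin and ALK1 are mostly made by endothelial cells, and endothelial markers were themselves higher in the LRG1 group, so the genes were also read against them. In whole tissue, fewer cells of a type and less RNA per cell cannot be told apart. At week 7, 11 of 16 endothelial markers were called higher and none lower, with a median log2 fold change of 0.88 where that of all tested genes was 0.01. Their summed level was 387 to 502 CPM in eGFP controls and 685 to 945 CPM in the LRG1 group, with no marker at 0. Among them were Emcn, a sialomucin of small vessels (0.87, SE 0.15, edgeR adjusted p = 0.000711), and Tek, the angiopoietin receptor (0.88, SE 0.19, adjusted p = 0.00237). At week 10 only Tie1, the partner of Tek, was called (0.98, SE 0.23, edgeR adjusted p = 0.00802), the median was 0.63, and the summed level was 345 to 705 CPM against 696 to 1054 CPM. In that comparison 13 of the 16 had an unadjusted p below 0.05 in edgeR, and 0 were called in the difference between weeks. Without eGFP libraries 1 and 3, Tie1 was at 0.60 (edgeR adjusted p = 0.125) and no endothelial marker was called at week 10. Only 87 of 21872 genes were called higher in that setting.

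Relative to the mean log2 CPM of the 16 endothelial markers, Eng was lower in the LRG1 group of week 7. It was at 0.72, 0.94, 0.64 and 0.80 in eGFP controls and at 0.10, -0.19, 0.13 and 0.05 in the LRG1 group, so the groups did not overlap and the difference of means was -0.75 on the log2 scale. The level of Eng itself was not detectably different at this week, while the reference markers were higher. At week 10 the Eng values overlapped, with 1.11, 0.06, 0.71 and 0.20 in eGFP controls and -0.05, 0.10, -0.36 and -0.07 in the LRG1 group. Acvrl1 on this scale was at 0.75, 1.21, 0.70 and 0.68 in eGFP controls and at -0.64, -0.75, -0.61 and -0.33 in the LRG1 group of week 7, a difference of -1.42. At week 10 Acvrl1 overlapped, with a difference of -1.21. With group means subtracted, Pearson's r of Acvrl1 over 16 libraries was -0.55 with the mean of the endothelial markers. It was 0.83 with the mean of the macrophage markers. Without eGFP libraries 1 and 3 of week 10 these were 0.27 and 0.57. Which cells the Acvrl1 values on this scale come from was not tested.

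On the same scale Lrg1 remained higher in all LRG1 libraries, by 0.89 at week 7 and 1.36 at week 10. Tgfbr1 (-1.30 and -1.16), Tgfbr2 (-0.63 and -0.96) and Tgfb1 (-1.69 and -1.42) were lower in all LRG1 libraries at both weeks. Id1 (-0.62) and Id3 (-0.87) were lower in all LRG1 libraries at week 7 and overlapped at week 10 (-0.27 and -0.19). Bmpr2 (-0.36 and -0.42) and Smad7 (-0.59 and -0.14) overlapped at both weeks. These differences are a description and contain the difference in the reference markers themselves.

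**Figure D4:**
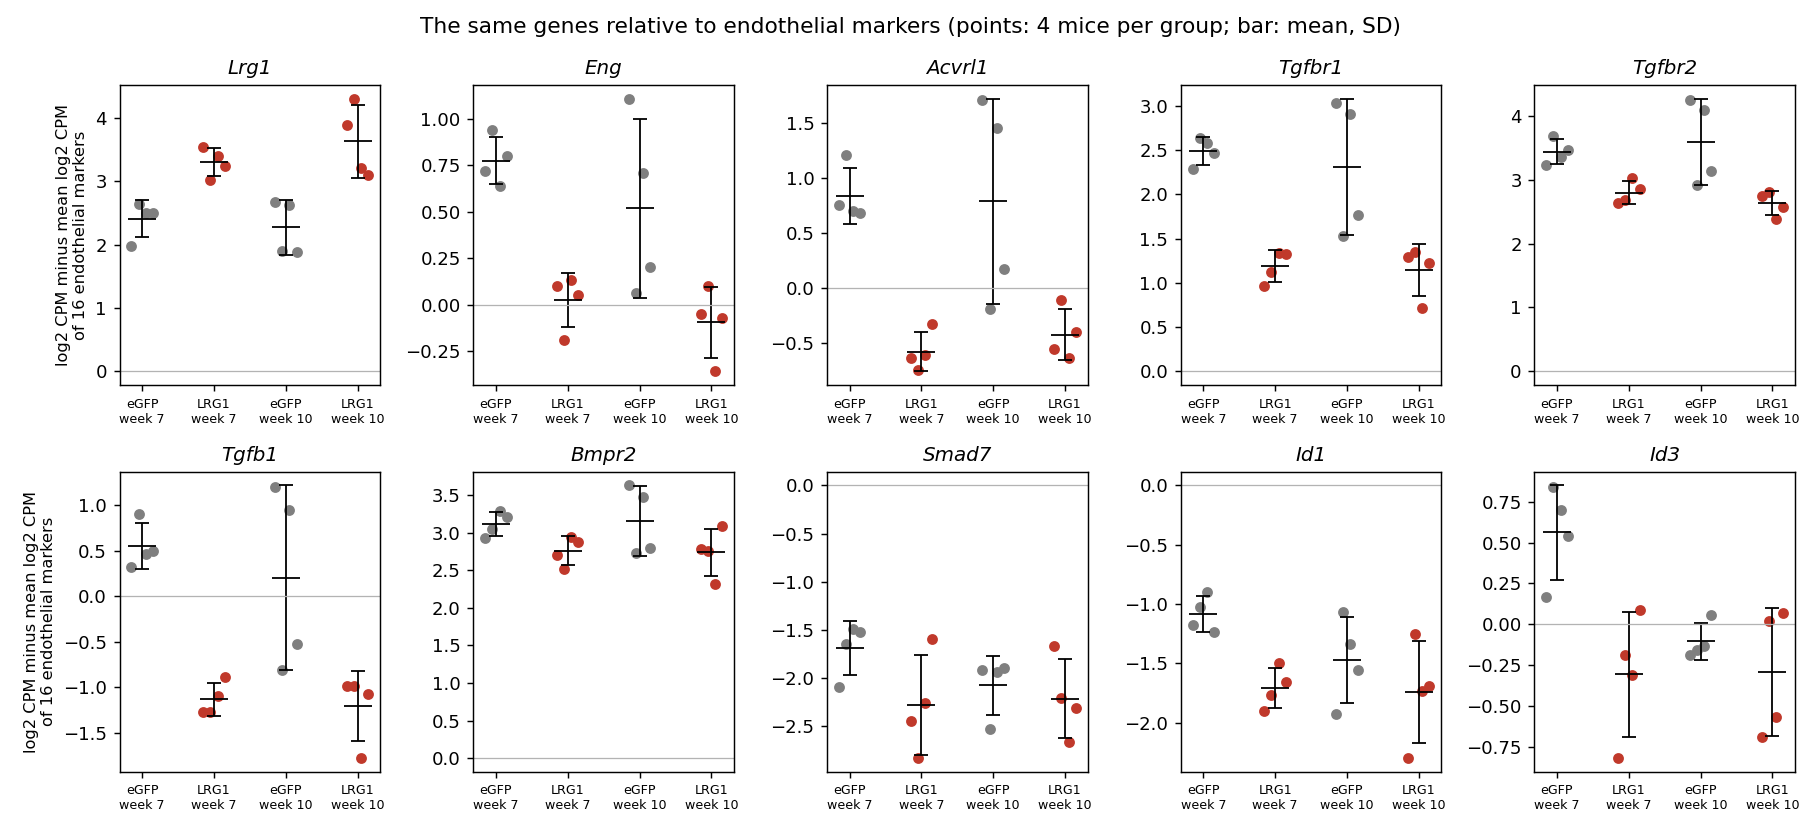
Log2 CPM of each gene minus the mean log2 CPM of 16 endothelial markers (vertical axis) in every mouse of the 4 groups. Points are mice, the bar is the mean and SD of 4 mice, and the grey line is 0. Eng and Acvrl1 lie lower in every LRG1 mouse of week 7 than in any eGFP mouse of that week and overlap at week 10, where eGFP libraries 1 and 3 are high.

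Markers of leukocytes and macrophages, cells that also make Tgfb1 and its receptors, moved the other way. All 10 leukocyte markers were called lower at both weeks (median log2 fold change -1.52 and -1.29), with a summed level at week 7 of 1163 to 1453 CPM in eGFP controls and 360 to 497 CPM in the LRG1 group. At week 10 it was 642 to 2003 CPM against 380.1 to 534 CPM. Of the macrophage markers, 10 of 10 were called lower at week 7 and 9 of 10 at week 10 (medians -1.34 and -1.02), with sums of 2791 to 3456 against 1293 to 1414 CPM at week 7 and 1662 to 3024 against 1151 to 1509.5 CPM at week 10. Aif1, which encodes IBA1, was among them (-2.42, SE 0.17, edgeR adjusted p = 1.07e-07 at week 7). Without eGFP libraries 1 and 3 of week 10, where 74 of 21872 genes were called lower, Vav1 was the only leukocyte marker called at that week (-0.77, edgeR adjusted p = 0.00921). Ptprc was then at -0.61 (edgeR adjusted p = 0.025) and Cd52 at -0.70 (adjusted p = 0.0736). Of the macrophage markers Adgre1, C1qa, C1qb, C1qc and Ms4a7 were called in that setting and the others were not. Every marker of both lists stayed below 0. Tgfb1, Tgfbr1 and Acvrl1 thus fell or lay lower together with these markers, and their part in the result was not tested. Smooth muscle and pericyte markers were called higher for 4 of 10 at both weeks (medians 0.59 and 0.67), led by Myh11 (1.12, SE 0.18, edgeR adjusted p = 0.000254 at week 7). Adipocyte markers were called higher for 2 of 10 at each week (8 and 5 at an unadjusted p below 0.05, medians 0.64 and 0.48). Their summed level was 12038 to 12837 CPM in eGFP controls and 16016 to 20327 CPM in the LRG1 group of week 7, and 8342 to 16719 against 18559 to 19898 CPM at week 10, with none at 0 and no overlap at either week. The mean log2 CPM of the adipocyte markers did overlap at week 10, at 8.22 to 9.38 in eGFP controls and 9.35 to 9.61 in the LRG1 group. Fibroblast markers gave 2 higher and 1 lower at week 7 and 1 lower at week 10. Without eGFP libraries 1 and 3 of week 10, Myh11 was the only smooth muscle or pericyte marker called at that week (0.65, edgeR adjusted p = 0.00791). Lep was then the only adipocyte marker called (0.63, edgeR adjusted p = 0.00996), and no fibroblast marker was called. Adipoq (-0.06), Fabp4 (-0.01), Retn (-0.50) and Cfd (-0.71) were below 0 in that setting, and the other adipocyte markers above 0. None of the 6 mesothelial markers was called (4 and 0 at an unadjusted p below 0.05 at weeks 7 and 10), and each of the 8 testis and epididymis markers was under 1 CPM in all groups. Of these, Lcn5 was at 0.781 CPM in eGFP library 3 of week 10 and at 0 in every other library, and Adam7 was at 0.416 CPM in eGFP library 3.

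The rest of the pathway was read from a list of 72 genes, of which 68 passed the filter on low counts. At week 7, 11 were called higher and 5 lower, which is 16.2% and 7.35% of those tested where 7.37% and 10.7% of all tested genes were called, and their median log2 fold change was 0.27. At week 10 there were 5 higher and 5 lower, or 7.35% in each direction where 3.66% and 5.24% of all tested genes were called, with a median of 0.18. Without eGFP libraries 1 and 3, edgeR called 0 of the 68 at week 10 (19 at an unadjusted p below 0.05), with a median of 0.05. Of all 21872 genes tested in that setting, only 87 were called higher and 74 lower. Each week 10 call named for these pathway genes was lost there. None was called by edgeR in the difference between weeks or between weeks in the LRG1 group (7 in each at an unadjusted p below 0.05), and in eGFP controls 1 was, Dcn (0.75, SE 0.11, edgeR adjusted p = 0.000845). The genes of the ALK1 ligands BMP9 (Gdf2) and BMP10 (Bmp10) were below the filter and could not be tested, as were Grem1 and Itgb6.

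Of the 6 other ligands tested, Bmp6 was called higher at week 7 (0.80, SE 0.18, edgeR adjusted p = 0.00315). It was at 7.96, 7.23, 8.84 and 7.93 CPM in eGFP controls and at 15.4, 13, 13.7 and 13.5 CPM in the LRG1 group, with no overlap. At week 10 no ligand was called (3 at an unadjusted p below 0.05), and Bmp6 was at 0.55 (SE 0.18, adjusted p = 0.0337). Tgfb3 had the opposite sign to Tgfb1 without being called, with log2 fold changes of 0.61 (SE 0.23, edgeR adjusted p = 0.0559 for week 7) and 0.58 (SE 0.23, adjusted p = 0.0787 for week 10). Of the 8 other receptors, 3 were called higher at week 7 and none at week 10 (4 at an unadjusted p below 0.05). These were Acvr1 (ALK2, a BMP type I receptor; 0.48, SE 0.09, edgeR adjusted p = 0.00105), Tgfbr3 (betaglycan, the co-receptor most like endoglin; 0.58, SE 0.12, adjusted p = 0.00177) and Rgma (a BMP co-receptor; 0.60, SE 0.14, adjusted p = 0.00543). Tgfbr3 was at 77.1 to 92.0 CPM in eGFP controls and at 112 to 140.2 CPM in the LRG1 group of week 7. None of the other 7 SMAD genes was called at either week (2 and 3 at an unadjusted p below 0.05), with Smad9 at 0.97 (SE 0.34, edgeR adjusted p = 0.0389) at week 7 the nearest.

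Among 14 inhibitors tested, Tgif1, a repressor of transcription driven by SMAD2 and SMAD3, was called lower at both weeks (-1.14, SE 0.20, edgeR adjusted p = 0.000737, and -1.11, SE 0.20, adjusted p = 0.00263). It was at 32.0 and 32.6 CPM in eGFP libraries 1 and 3 of week 10 and at 14.2 and 17.6 CPM in libraries 2 and 4, the same split as for Tgfb1, and without libraries 1 and 3 it was at -0.51 (SE 0.11, edgeR adjusted p = 0.0205). Nbl1, a BMP antagonist, was called higher at week 7 (0.67, SE 0.17, adjusted p = 0.00814). Among 11 genes of latent TGF-beta storage, Nrros, the milieu molecule that presents latent TGF-beta 1 on myeloid cells, was lower at both weeks (-1.27, SE 0.21, edgeR adjusted p = 0.000441, and -0.97, SE 0.21, adjusted p = 0.00566). At week 10 Nrros was at 75.7, 35.1, 66.3 and 33.9 CPM in eGFP controls and at 25.6, 33.1, 24.3 and 24.8 CPM in the LRG1 group. Libraries 2 and 4 of the eGFP group lay just above the LRG1 libraries, and without libraries 1 and 3 it was at -0.36 (SE 0.12, edgeR adjusted p = 0.119). Of the 4 latent TGF-beta binding protein genes, Ltbp3 was higher at both weeks (0.70, SE 0.17, edgeR adjusted p = 0.00653, and 0.82, SE 0.17, adjusted p = 0.00481). Ltbp4 was called at week 7 (1.07, SE 0.25, edgeR adjusted p = 0.00472) but not at week 10 (0.94, SE 0.25, adjusted p = 0.0155). Ltbp2 was called at week 10 (1.09, SE 0.21, edgeR adjusted p = 0.0032) but not at week 7 (0.30, SE 0.21, adjusted p = 0.289). Ltbp1 was called at neither (0.59, SE 0.16, edgeR adjusted p = 0.0103 in the younger mice and 0.16, SE 0.16, adjusted p = 0.504 in the older). The TGF-beta binding proteoglycan Dcn was higher at week 7 (0.48, SE 0.11, adjusted p = 0.004).

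Of the 8 other targets of endothelial ALK1 and BMP signalling, Tmem100 (0.86, SE 0.15, edgeR adjusted p = 0.000754) and the arterial connexin Gja4 (1.28, SE 0.25, adjusted p = 0.00135) were higher at week 7, and Id2 was lower (-1.19, SE 0.12, adjusted p = 6.37e-06). Of all tested genes, 7.37% and 10.7% were called higher and lower at week 7 and 3.66% and 5.24% at week 10. The list medians were 0.59 and 0.32, and Hey1, Hey2, Gja5, Atoh8 and Id4 were called at neither week. Gja4 was at 4.19, 3.85, 4.73 and 4.49 CPM in eGFP controls and at 11.8, 10.2, 10.6 and 9.37 CPM in the LRG1 group. Id2 was at 42.5, 40.9, 33.3 and 41.8 CPM in eGFP controls and at 15.8, 20.6, 16.9 and 16.2 CPM in the LRG1 group, with no overlap. At week 10 Gja4 (1.32, SE 0.25, edgeR adjusted p = 0.00305) was again higher and Id2 (-0.58, SE 0.12, adjusted p = 0.00481) lower, and without eGFP libraries 1 and 3 they were at 0.87 (edgeR adjusted p = 0.0261) and -0.42 (adjusted p = 0.0798). Endothelial markers were higher at week 7 too (median 0.88) and leukocyte markers lower (median -1.52). The part of cell composition in these target genes was not tested.

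Of the 14 target genes of TGFBR1 signalling, 1 was called higher and 2 lower at week 7, and 2 higher and 2 lower at week 10. Of all tested genes, 7.37% and 10.7% were called higher and lower at week 7 and 3.66% and 5.24% at week 10. Tgfbi (-0.96, SE 0.11, edgeR adjusted p = 1.8e-05, and -0.46, SE 0.11, adjusted p = 0.00809) and Timp1, a metalloproteinase inhibitor (-1.16, SE 0.30, adjusted p = 0.00774, and -1.36, SE 0.30, adjusted p = 0.00601), were lower at both weeks. At week 10 Timp1 was at 49.6, 14.5, 40 and 21.7 CPM in eGFP controls and at 12.7, 15.1, 11.1 and 9.91 CPM in the LRG1 group. The groups overlapped through eGFP library 2, libraries 1 and 3 were the high ones, and without them the log2 fold change was -0.57 (SE 0.23, edgeR adjusted p = 0.182). Cdkn1a, the cell cycle inhibitor p21, was higher at both (0.43, SE 0.10, edgeR adjusted p = 0.00583, and 0.44, SE 0.10, adjusted p = 0.00847). Lox, the collagen crosslinking enzyme, was called higher at week 10 (1.22, SE 0.24, edgeR adjusted p = 0.00339) and not at week 7 (0.51, SE 0.24, adjusted p = 0.111), and the difference between weeks was not called.

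**Figure D5:**
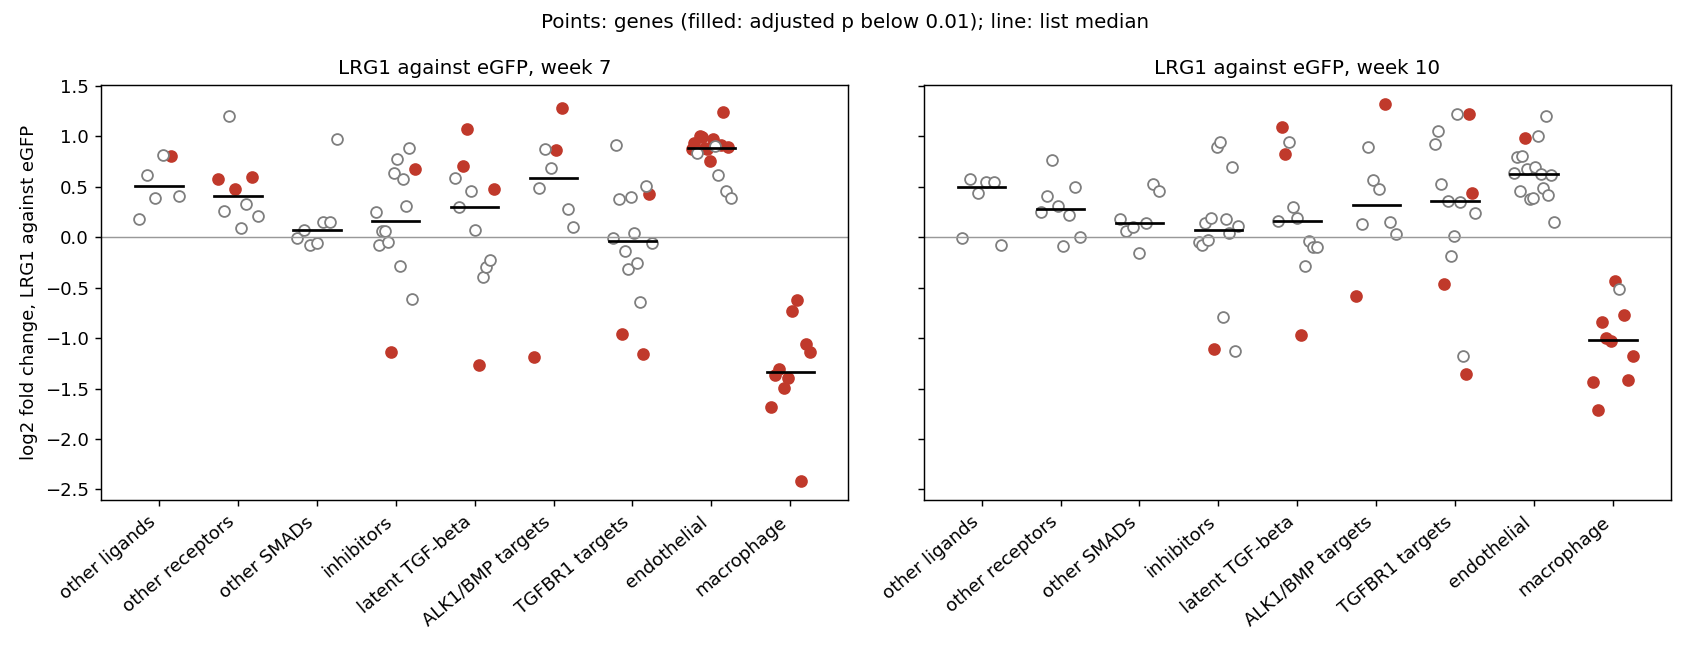
Log2 fold change of the LRG1 group against eGFP controls (vertical axis) at week 7 (left) and week 10 (right) for the tested genes of each list. Points are genes, filled red where the adjusted p was below 0.01, and lines are list medians. Called genes lie on both sides of 0 among inhibitors, latent TGF-beta genes and both target lists, whereas endothelial markers lie above 0 (medians 0.88 and 0.63) and macrophage markers below 0 (medians -1.34 and -1.02).

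Lrg1 is also known as an acute-phase gene that STAT3 induces, so 15 genes of that response, cytokine and receptor genes among them, were read beside it. At week 7, 3 were called higher and 2 lower, and at week 10, 3 higher and 1 lower, where 7.37% and 10.7% of all tested genes were called at week 7 and 3.66% and 5.24% at week 10. The medians of the list were 0.21 and -0.02. The plasma proteins orosomucoid and haptoglobin were higher at both weeks, Orm2 by 1.66 (SE 0.23, edgeR adjusted p = 9.64e-05) and 1.69 (SE 0.24, adjusted p = 0.00104), Orm1 by 1.13 (SE 0.23, adjusted p = 0.00203) and 1.06 (SE 0.23, adjusted p = 0.00601), and Hp by 0.80 (SE 0.18, adjusted p = 0.00329) and 1.15 (SE 0.18, adjusted p = 0.00138). The inflammatory cytokine gene Tnf was lower at both (-1.54, SE 0.24, edgeR adjusted p = 0.000232, and -1.23, SE 0.24, adjusted p = 0.00351), and Stat3 was lower at week 7 (-0.39, SE 0.08, adjusted p = 0.00172). Saa3, Lcn2, Cp and Socs3 were called at neither week. Socs3 was at 10.8 to 18.6 CPM in eGFP controls and 5.83 to 11.4 CPM in the LRG1 group of week 7. At week 10 it was at 7.39 to 13.7 against 4.34 to 6.14 CPM, with no overlap. Without eGFP libraries 1 and 3 of week 10, Hp was still called (0.82, SE 0.13, edgeR adjusted p = 0.00584), while Orm2 (1.47, adjusted p = 0.0127), Orm1 (0.58, adjusted p = 0.0133) and Tnf (-0.78, adjusted p = 0.0805) were not. Adipocytes make orosomucoid and haptoglobin as well as LRG1, and the summed adipocyte markers were higher in every LRG1 library than in any eGFP library of the same week, as given above. Their mean log2 CPM, however, overlapped at week 10. The part of adipocytes in these values was not tested. Orm1 and Orm2 are close copies of each other, and how reads common to both were counted is not stated.

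Within groups, the 10 genes had different nearest neighbours in pattern. Likeness was measured as Pearson's r of log2 CPM after subtracting each group's mean, over 16 libraries, and points share the same 16 tissues and scaling, so the values are a description. Eng was most like Vwf, an endothelial secreted protein (r = 0.83), then Top3b (r = 0.78) and Eral1 (r = 0.76). LRG1 library 1 of week 7 stood apart for both Eng (44.1 CPM against 31.5 to 32.7) and Vwf (36.9 CPM against 18.5 to 21.4). The r of Eng with Vwf without that library was not computed. With the mean of the 16 endothelial markers Eng had r = 0.44 (0.65 without eGFP libraries 1 and 3 of week 10). Lrg1 was most like Cmtr1 (r = 0.81), Nr4a1 (r = 0.80) and Polr2d (r = 0.80). Tgfb1 was most like Rap1b (r = 0.98), Tgfbr1 like Prkcb (r = 0.97), Acvrl1 like Ect2 (r = 0.95) and Tgfbr2 like Akirin2 (r = 0.94). Without eGFP libraries 1 and 3 of week 10 these were 0.92, 0.77, 0.89 and 0.88 over 14 libraries, whereas Eng with Vwf (0.81) and Lrg1 with Cmtr1 (0.86) moved less. Bmpr2 was most like Ubr3 (r = 0.95, and 0.96 over 14 libraries), Smad7 like Cfb (r = 0.86 and 0.84), Id1 like Zbtb5 (r = 0.93 and 0.84) and Id3 like Kif7 (r = 0.93 and 0.83).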

How the data were processed

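RNA of eWAT from 16 db/db mice, 4 per treatment and week, was sequenced by the authors. The deposited file holds raw counts per Ensembl gene, which the authors made by trimming with cutadapt, aligning to mm10 (GRCm38) with STAR and counting with featureCounts, without normalization. Versions, strand setting and the handling of reads that map to several places are not given in the sources used here. Library totals ran from 45376227 to 67539937 counts. Mitochondrial ribosomal RNA took 24.1 to 30.4% of them, 25.0% ± 0.863 (SD, n = 4) in eGFP controls and 29.2% ± 1.51 in the LRG1 group at week 7. Groups were taken from the labels. P-values measure the spread between mice, taken as independent. Vectors were given by cage, so the p-values hold no spread between cages. The paper used several db/db cohorts, and the cohort of each mouse is not given in the sources used here. The depth of low genes such as Smad7 limits the precision of their values.

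All 20822 genes kept by filterByExpr were tested in 1 fit of 16 libraries with a coefficient per group in R 4.3.3 with edgeR 4.0.16 (TMM scaling, quasi-likelihood F test, Benjamini-Hochberg adjustment over all tested genes, calls at an adjusted p below 0.01, no covariate). SEs were derived from the fold change and the F statistic. The log2 CPM used for marker means had a prior count of 2. Levels per kilobase used the gene length that featureCounts gave with the deposited counts. The procedure was tested on simulated data. Alternatives were DESeq2 1.42.0, limma-voom (limma 3.58.1), only the 8 libraries compared, 3 other scalings, 2 other filters, removal of mitochondrial ribosomal RNA, the replicate number as a block, a threshold of 0.05, leaving out each library, and, chosen after seeing the data, leaving out both eGFP libraries 1 and 3 of week 10.

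The 10 genes and all lists were chosen with earlier results of these data known. Named are all 10, the genes of each pathway list with the smallest adjusted p at each week or called in any comparison, up to 2 genes of each marker list by adjusted p at week 7, the annotated neighbours of Lrg1, and for each of the 10 the genes most like it. Emphasis on Id2 beside Id1 and Id3, the order of the libraries, Tie1 and the choice of which listed genes are given per library came after their values were seen. Mice of the same replicate number in different groups, 24 pairs, did not deviate together from their group means (median r -0.0126, range -0.200 to 0.142), and the number was left out of the fit. No 2 libraries of a group were duplicates.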

Additional observations from a re-analysis of the deposited data

Results flagged for a closer look

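In 5 of the 40 sets of 4 libraries (10 genes in 4 groups), 1 library lay far from the other 3 by Dixon's criterion, which chance meets in about 1 of 20 sets. Lrg1 was lowest in eGFP library 1 of week 7, at 86.2 CPM against 107 to 110.2 in the other 3. Lrg1 was highest in LRG1 library 1 of week 7, at 478 CPM against 288 to 316, and the same library was highest for Eng, at 44.1 CPM against 31.5 to 32.7. Tgfb1 was highest in eGFP library 2 of week 7, at 32.4 CPM against 26.7 to 27.2, and Smad7 in LRG1 library 1 of week 10, at 10.7 CPM against 6.72 to 7.24. Without LRG1 library 1 of week 7 the log2 fold change of Lrg1 at that week was 1.55 and stayed called in edgeR.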

How the results depend on the processing

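Lrg1 was called higher at both weeks under every alternative and with every single library left out, at log2 fold changes of 1.55 to 1.83 at week 7 and 1.94 to 2.29 at week 10 with 1 library left out. The counts of called genes moved more, and the cause was not tested. Of the 2 genes called lower at week 10, 1 stayed in limma-voom and with the replicate number as a block, 0 with only the 8 libraries compared and 0 without eGFP libraries 1 and 3, and at an adjusted p below 0.05 there were 4. With 1 library left out the number ran from 0 to 3. At week 7 the 2 genes called higher became 1 with library size scaling and 1 to 2 with 1 library left out, and the 2 called lower became 0 to 2, with 0 without LRG1 library 3, where Tgfbr1 and Tgfb1 had adjusted p-values of 0.0105 and 0.0111. In eGFP controls between weeks, DESeq2 and a threshold of 0.05 each called 1 gene higher (Tgfbr2), leaving out 1 library 0 to 1, and 1 was called lower (Tgfb1) without libraries 1 and 3. Over all tested genes, DESeq2 called 462 higher, the threshold of 0.05 gave 479 higher, and 1146 were lower without libraries 1 and 3. The replicate block left all other calls as they were.

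Values near 0 changed sign. At week 7 these were Id3 with upper quartile scaling (0.03) and Eng with library size only (-0.06). The difference of the effects between weeks changed sign for Eng and Tgfbr1 in limma-voom (0.00 and 0.01), with library size only (0.13 and 0.15) and with no filter (0.00 for both), and for Eng with the replicate block (0.00). Library size only also turned the change between weeks of Lrg1 (-0.06) and Tgfbr1 (-0.10) in eGFP controls and of Tgfb1 (0.02) in the LRG1 group. Without eGFP libraries 1 and 3, Id1 at week 10 became -0.13, the difference between weeks became 0.25 for Tgfbr1 and -0.35 for Id1, and the change between weeks in eGFP controls became -0.23 for Acvrl1, -0.23 for Tgfbr1, 0.10 for Smad7 and 0.41 for Id1. With 1 library left out, the ranges that crossed 0 were -0.03 to 0.14 for Eng and -0.11 to 0.05 for Id3 at week 7. For the difference between weeks they were -0.06 to 0.12 for Eng, -0.11 to 0.19 for Acvrl1, -0.10 to 0.08 for Tgfbr1, -0.08 to 0.26 for Tgfb1 and -0.12 to 0.49 for Id1. For eGFP controls between weeks they were -0.03 to 0.08 for Lrg1, -0.06 to 0.12 for Tgfbr1, -0.27 to 0.06 for Tgfb1 and -0.42 to 0.19 for Id1. For the LRG1 group between weeks they were -0.12 to 0.06 for Eng, -0.01 to 0.04 for Tgfbr1, -0.07 to 0.05 for Tgfb1, -0.05 to 0.11 for Bmpr2, -0.07 to 0.32 for Smad7, -0.06 to 0.24 for Id1 and -0.01 to 0.21 for Id3.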
